A study of Mus musculus with 2 samples.

Results

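Single-exon antisense models are transcript models of 1 unspliced block that lie on the strand opposite an annotated gene. They were taken as every row of the 2 libraries' deposited tables with the novelty class Antisense and 1 exon. The tables listed 6862 such models among 63014 in replicate 1 and 9312 among 67079 in replicate 2, and 2 and 4 of them lay on spike-in RNA, which leaves 6860 and 9308 mouse models. The libraries are long-read RNA sequencing of the adrenal gland of untreated male B6CASTF1/J mice, the first-generation cross of C57BL/6J and CAST/EiJ, aged 36 days, with Ambion mix 1 and Lexogen set 4 spike-ins added to both. They form 1 group of 2 replicates, so no condition is compared, and tests on reads compare these 2 libraries. The labels disagree on whether the libraries share an animal number, so it is not known that they came from separate animals, and their spread may be technical. Cyp11a1, which starts steroid synthesis in the adrenal cortex, had 12394 and 10862 reads, and Th, which starts catecholamine synthesis in the medulla, had 1076 and 1252.

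Antisense RNA is transcribed from the strand opposite a gene. It can come from a promoter that fires in both directions, from a neighbouring gene that is read through, or from an antisense gene of its own. Reads of the opposite strand can also be made in the tube. This can happen when the oligo(dT) primer that starts reverse transcription pairs with a stretch of A inside a cDNA rather than with a poly(A) tail. A genuine poly(A) tail is usually preceded by a signal word, most often AATAAA or ATTAAA. Unspliced antisense reads lack the splice sites that fix the strand of a spliced read.

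The genome letters around the 3′ end show what many of the exonic models had in common. A line is given for 11 of the matched loci with the most reads among those that lay wholly in an exon and whose 3′ end was not on an annotated exon edge. Each line holds the last 10 bases of 1 library's model and the 20 genome bases after it. It is written 5′ to 3′ on the model's own strand, with runs of at least 6 A in capitals. The other library's model did not always end there. Its 3′ end lay 478 bases away at the first Malat1 locus printed and 12 away at 2900097C17Rik. Letters are those of the GENCODE M21 transcripts on mm10, reversed to the antisense strand where needed, and loci are named after the opposite gene.

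2900097C17Rik, chr2:156391493-156391522, plus strand: ttacaactttaacacaaaatgtAAAAAAAA

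Malat1, chr19:5799469-5799498, plus strand: tacaatgcacaagaagAAAAAAAgcatacc

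Tacc1, chr8:25158024-25158053, plus strand: agattaaggcAAAAAAAAAAAAAAAAAAAA

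Malat1, chr19:5800279-5800308, plus strand: gcatctgtggaaaatcttagAAAAAAAAcg

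Sdc4, chr2:164425124-164425153, plus strand: cacggagcattAAAAAAAAAAAAAAAAAAA

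Cavin1, chr11:100958465-100958494, plus strand: ccggtttgtttAAAAAAAAAAAAAAAAgcc

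Acsl4, chrX:142318868-142318897, plus strand: ggaaaagccttAAAAAAAAAAAAAAAAAAA

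Msrb3, chr10:120783305-120783334, plus strand: aactttggacAAAAAAAAAAAAAAAAtgga

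Ogt, chrX:101653601-101653630, minus strand: aagttctcacAAAAAAAAAAAAAAAcaaaa

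Fdx1, chr9:51945789-51945818, plus strand: ctagggagtcctagaatgagaaagccaggt

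Lsm12, chr11:102163546-102163575, plus strand: tgccctgtgcAAAAAAAAAgaaagAAAAAA

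Of these 11 windows, only that of Fdx1 held no run of 6 A. The window of Tacc1, whose protein binds the mitotic spindle, had 20 A in 20 bases, and its antisense locus had 64 reads in replicate 1 and 57 in replicate 2. Those of Sdc4, a cell-surface heparan sulfate proteoglycan, and Acsl4, an acyl-CoA synthetase for arachidonic acid, both had 19. The window opposite Fdx1, the ferredoxin that feeds electrons to Cyp11a1, had 8 A, and its locus had 47 and 14 reads. The same window, from 1 library's model each, was read at all 78 matched loci of at least 10 reads with such an end, leaving out chromosome 18. Of these loci, 69 (88.5%) had at least 12 A in the 20 bases, and the median was 18.

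The same held across the exonic models of each library, most of which had few reads. A window was called A-rich at 12 A or more of 20. In replicate 1, 655 of 828 models (79.1%, Wilson 95% interval 76.2 to 81.7) were A-rich, and in replicate 2, 849 of 1064 (79.8%, 77.3 to 82.1). The median was 16 A in both libraries, and 88 and 99 models had 20 A. The share was 78.1% and 81.1% among models of 1 read and 78.9% and 69.9% among those of 10 reads or more. It was 78% and 78.7% opposite 3′ UTRs and 85.8% and 83.3% opposite noncoding exons. Models that share a gene or a site are not independent, so these intervals cover counting error only.

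Windows measured in the same way elsewhere were seldom A-rich. Of single-exon Genomic models, which lie on the gene's own strand without its splicing, 15% and 14.1% were A-rich, with medians of 6 and 5 A. The 20 bases before the 5′ end of the antisense models were A-rich in 1.51% and 1.19%. Of all 20-base windows on the antisense strand of the opposite genes' longest transcripts, 2.07% were A-rich. The plot of A counts shows the 2 kinds of model at opposite ends of the scale. These shares cover 99.6% and 99.8% of exonic models with a 3′ end off an annotated exon edge. Windows in introns were not analysed here, and over all members only 28.1% and 26.9% had one, so no A-rich share is given for them.

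**Figure D1:**
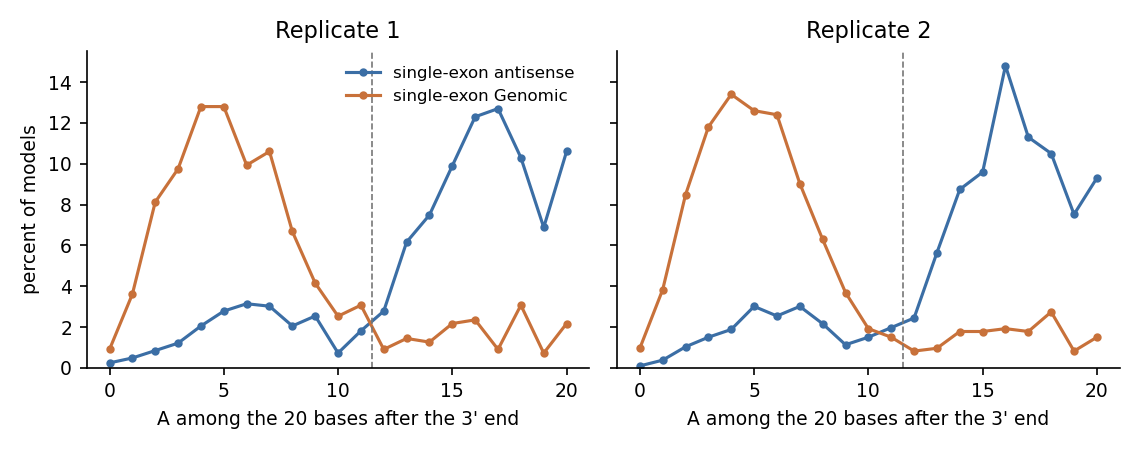
Number of A among the 20 genome bases after the 3′ end (x axis) against the percent of models (y axis), for single-exon antisense and single-exon Genomic models wholly in an exon with a 3′ end off annotated exon edges, 1 panel per replicate. The dashed line marks the limit of 12 A: 79.1% and 79.8% of antisense models lie to its right, against 15% and 14.1% of Genomic models.

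Poly(A) signal words were uncommon before the antisense 3′ ends. AATAAA or ATTAAA stood in the last 50 bases of 156 of 1396 exonic antisense models in replicate 1 (11.2%, 9.63 to 12.9) and of 206 of 1852 in replicate 2 (11.1%, 9.77 to 12.6). Among exonic Genomic models, the share was 78.3% and 77.9%. Unlike the A-rich shares, these include models whose 3′ end lay on an annotated exon edge. Only 559 of 3644 and 735 of 4515 exonic Genomic models ended off such an edge, against 831 of 1558 and 1066 of 2076 antisense ones. The 2 comparisons thus rest on different Genomic models. Of all 50-base windows on the antisense strand of the opposite genes' longest transcripts, 5.12% held either word. The signal words of the opposite strand, searched in the first 50 bases, stood in 20.7% and 19.1% of antisense models and in 5.62% and 6% of Genomic ones. At that 5′ end, 430 of 1558 exonic models (27.6%) and 562 of 2076 (27.1%) were listed as beginning on the base at which an annotated transcript of the opposite gene ends. Annotated exon edges of any gene held 51.3% and 54.5% of the exonic models' 5′ ends and 46.7% and 48.7% of their 3′ ends. Listed ends may therefore not be the ends of reads. A match of letters is a description of these windows and not a site. Whether priming on genome-encoded A produced these reads was not tested.

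By reads, the single-exon antisense class was larger in replicate 2. It held 14974 of 452437 endogenous reads in replicate 1 (3.31%, 3.26 to 3.36) and 22670 of 463102 in replicate 2 (4.9%, 4.83 to 4.96), a mean of 4.1% ± 1.12 (SD, n = 2). The ratio of the shares was 1.48, with an adjusted p under 1e-300 by Fisher's exact test over 12 classes of model. The other single-exon classes of model were also higher in replicate 2, while spliced classes went both ways. Among single-exon models the ratio was 1.44 for incomplete splice matches, 1.35 for Intergenic, 1.18 for Genomic and 1.04 for Known models. Among spliced models it was 1.33 for Genomic, 1.26 for Intergenic and 1.23 for Antisense models. It was 0.995 for spliced incomplete splice matches and 0.964 for spliced Known models. Models with new splice sites had 0.93, and those with new combinations of annotated splice sites 0.826. A single ribosomal RNA locus on chromosome 17, 39843013 to 39848827, gave 775 and 4686 of the antisense reads. Without it the shares were 3.15% and 3.93%, a ratio of 1.25 (Fisher's exact test p = 5.83e-91), near that of the spliced antisense models. Single-exon models carried 96.1% and 96.7% of all antisense reads, and spliced antisense models had 613 and 774 reads.

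Spike-in RNA has 1 known strand, so its antisense reads can be counted beside those of mouse RNA. They were 52 of all spike-in reads in replicate 1 (0.935%) and 108 in replicate 2 (0.679%). Every read of ERCC-00009 was listed as antisense, 43 and 78 reads. The remaining spike-ins had 9 antisense reads (0.163%, 0.0858 to 0.31) and 30 (0.19%, 0.133 to 0.271). Antisense reads were seen on 2 of 43 spike-ins in replicate 1 and 4 of 46 in replicate 2. Whether spike-ins carry A stretches like those of the mouse windows was not tested, so their share is not a background level for mouse RNA.

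Most models rested on a single read. Models of 1 read were 72.5% and 75.4% of all, and only 140 and 170 models had 10 reads or more, which together held 31.4% and 41.2% of the class's reads. The median length was 714.5 bases in replicate 1 and 470 in replicate 2. A further 143 and 212 models were listed as 1 base long, 103 and 163 of them on an annotated exon edge, so the span of a model is not always that of its reads. The models lay opposite 4499 and 5402 genes, 6833 in all, and the opposite gene was protein-coding for 95.4% and 94.8% of them.

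By place within the opposite gene, introns held the most models and exons the most reads. Models wholly in an intron were 48.9% and 52.4% of all, those wholly in an exon 22.7% and 22.3%, and those across an exon edge 24.1% and 21.3%. By reads, exonic models took 41.9% and 50.8% and intronic ones 32.4% and 29.8%. The ribosomal RNA locus gave 775 of 6273 exonic reads in replicate 1 and 4686 of 11523 in replicate 2. Without it, a setting chosen after seeing the data, the mean shares by reads were 38.4% in exons and 35.8% in introns. In replicate 2 the 2 places were then nearly equal. Models that overlapped the opposite gene and ran past its start were 2.78% and 2.81%, and those past its end 0.816% and 0.537%. Spliced antisense models were placed differently: 59.6% and 56.8% crossed an exon edge, 13.8% and 12.8% ran past the start, and 2.45% and 2.62% lay within an exon. No test is given, because models of 1 library share its depth and annotation.

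**Figure D2:**
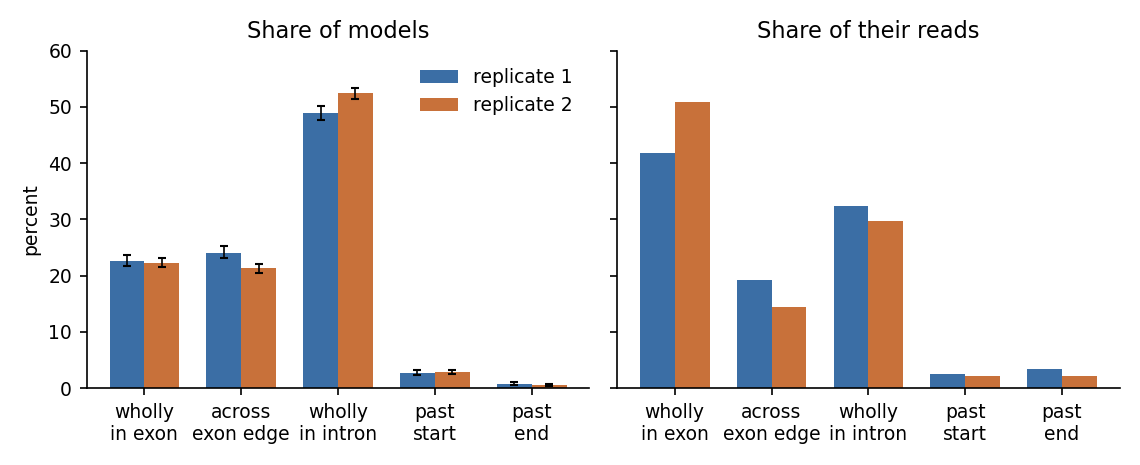
Place of single-exon antisense models within the opposite gene (x axis) as the percent of models, left, and of their reads, right (y axis), for both replicates. Bars start at 0, and the error bars on the left are Wilson 95% intervals of counting error. Intronic models are the most numerous, at 48.9% and 52.4%. Exonic models hold the most reads, at 41.9% and 50.8%, with the ribosomal RNA locus included.

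Within the gene, exonic models gathered at the end and intronic models near the start. Of exonic models, 63% and 57.9% lay in the 3′ UTR, 13.9% and 15.4% in coding sequence, 6.29% and 8.96% in the 5′ UTR and 16.9% and 17.7% in noncoding exons. With each opposite gene cut into 5 equal lengths, the last of them held 56.6% and 54.1% of the exonic models. The first of them held 41.1% and 37.2% of the intronic models, against 8.43% and 9.72% in the last. The exon and intron bases in each part were not counted, so whether the models follow the available length was not tested. Downstream of a same-strand gene, within 5 kb, lay 8.69% and 8.38% of all single-exon antisense models, 9.48% and 9.95% of spliced antisense models and 17.5% and 16.7% of single-exon Intergenic models. By reads the order differed, at 14.9% and 28.4%, 6.04% and 5.94%, and 12.8% and 14%. The models opposite CT010467.1 and Gm26917, at the ribosomal RNA locus, lay 12 and 108 bases downstream of a same-strand gene. They held 5.18% and 20.7% of the class's reads, all counted in the 14.9% and 28.4%. Without them, the share by reads of single-exon antisense models would lie below that of Intergenic models in both libraries.

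The matched loci with the most reads had values in both libraries that can be read one by one. The highest lay opposite CT010467.1, an annotated ribosomal RNA gene, on chromosome 17 from 39846353 to 39846958. It had 260 reads in replicate 1 and 4250 in replicate 2, while the gene had 1 sense read in each. Nearly all reads at this gene thus lay on the strand listed as antisense. Gm26917, a noncoding RNA gene beside CT010467.1, had an antisense locus of 515 and 436 reads, against 56 and 83 sense reads. The third was opposite the end of Actb, the cytoskeletal actin, on chromosome 5: it had 340 and 394 reads, and its models reached past the annotated 3′ end of the gene. Kcnk3, a background potassium channel, had 130 and 99 antisense reads in its 3′ UTR beside 1489 and 1030 sense reads.

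Several of the leading loci had more reads than the gene they faced. Cdv3 had 100 and 118 antisense reads against 7 and 10 sense reads, and Tmem250-ps had 108 and 145 against 16 and 17. The noncoding gene 2900097C17Rik had 105 and 78 against 12 and 16. In 5′ UTR exons lay the loci of Ptp4a2, a protein tyrosine phosphatase, with 97 and 150 reads, and of Tbx3, a T-box transcription factor, with 109 and 82. The sense reads of these genes were 73 and 68 for Ptp4a2 and 55 and 51 for Tbx3. Apart from the locus of CT010467.1, all of the loci named here differed by less than 2-fold between the libraries.

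In the other places the leading loci were smaller. Intronic loci were led by those of Setd2, the histone H3K36 methyltransferase, with 23 and 34 reads, and Aldh18a1, an enzyme of proline synthesis, with 28 and 25. The sense reads of Setd2 were 0 and 2. Across an exon edge, the locus of Fgfr2, a fibroblast growth factor receptor, had 46 and 25 reads.

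Few models recurred between the libraries. With the same strand and a reciprocal overlap of at least 50%, 1627 pairs were matched, which is 23.7% of the models of replicate 1 and 17.5% of those of replicate 2, and 47.4% and 50.2% of their reads. The share rose with the reads: 16.2% and 10.5% of models of 1 read, 41.4% and 36.5% of those of 2 to 9, and 70% and 69.4% of those of 10 or more had a partner. By place, 34.4% and 25.7% of exonic models were matched, 38.7% and 29.4% of those past the gene start, and 18.9% and 13.1% of intronic ones. Among the matched pairs, 98.2% fell in the same place. The remaining loci were 5233 seen in replicate 1 alone and 7681 in replicate 2 alone, and at 1 or a few reads a missing partner was not distinguishable from a locus too shallow to be sampled in both.

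The 3′ ends of matched models coincided more closely than their 5′ ends. Leaving out ends on annotated exon edges, 992 of 1155 pairs (85.9%) had 3′ ends within 10 bases of each other and 701 ended on the same base. For 5′ ends this was 549 of 1007 pairs (54.5%), with 236 on the same base. Intronic pairs showed it too, at 88.6% for 3′ ends and 59.7% for 5′ ends, as did exonic pairs, at 82.4% and 46.6%. The overlap rule treats both ends alike, so it did not favour either.

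**Figure D3:**
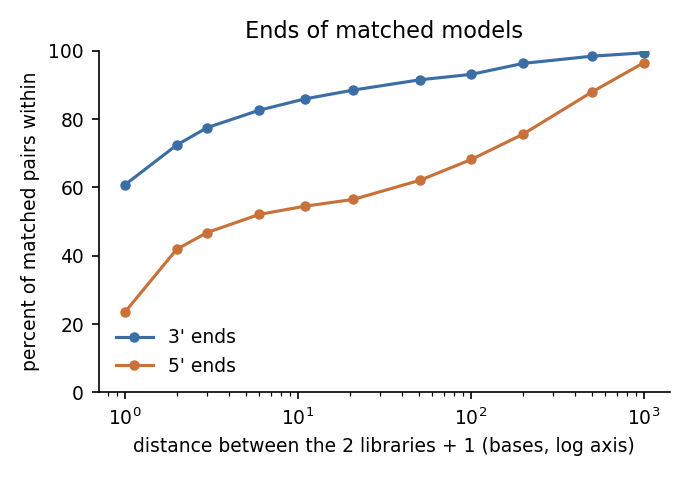
Distance between the 2 libraries' ends of matched models (x axis, bases plus 1, log axis) against the percent of pairs within that distance (y axis), for 1155 pairs of 3′ ends and 1007 pairs of 5′ ends off annotated exon edges. The 3′ curve lies above the 5′ curve throughout: at 10 bases it is at 85.9% against 54.5%.

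Few matched loci were called different between the 2 libraries. Features of the whole table with at least 10 reads were tested with Fisher's exact test and Benjamini-Hochberg adjustment, and a feature was called where the adjusted p was below 0.05 and the change, after 1 CPM was added, reached 2-fold. CPM is a count scaled to the library's endogenous total, and 1 read was worth 2.21 and 2.16 CPM. Of all features, 4.9% were called. That share includes the single-exon antisense loci without a partner, which had to be called. Of the features other than single-exon antisense loci, 3.88% were called. Of the 244 matched loci tested, 7 (2.87%) were called. Of these, 3 had the higher level in replicate 2 and 4 in replicate 1, against 2.41% and 2.5% of all features in those directions. The median log2 ratio of replicate 2 over replicate 1 was 0.03 for matched loci and -0.03 for all features. A share this near that of all features is not a result about the loci. Matched loci were chosen for having reads in both libraries, and at low counts a large difference can go uncalled. The locus of Tmem263, for example, had 1 and 10 reads and was not called. A lack of calls is thus not a measure of likeness.

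The called matched loci are named here in full, 4 of them (Agtr1a, Mbd3, Acsl4 and Matr3) after their values were seen. The locus opposite CT010467.1 was 16-fold higher in replicate 2 (95% interval 14.1 to 18.2, adjusted p under 1e-300 by Fisher's exact test). Its gene had 1 sense read in each library. Acsl4 had 26 and 61 reads (log2 ratio 1.18, adjusted p = 0.00505), and Matr3, which encodes a nuclear matrix RNA-binding protein, had 7 and 30 (2.00, adjusted p = 0.00425). The other 4 were lower in replicate 2. Agtr1a, the angiotensin II receptor that drives aldosterone, had 43 and 7 antisense reads (log2 ratio -2.58, adjusted p = 3.93e-06), beside 101 and 73 sense reads. Fdx1 had 47 and 14 (-1.75, adjusted p = 0.000434), beside 1210 and 926 sense reads. Mbd3, a subunit of the NuRD complex, had 22 and 6 (-1.83, adjusted p = 0.0286), and the noncoding gene AC161438.1 had 38 and 8 (-2.22, adjusted p = 0.000148). In a whole tissue, fewer cells of a type and less RNA per cell cannot be told apart.

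**Figure D4:**
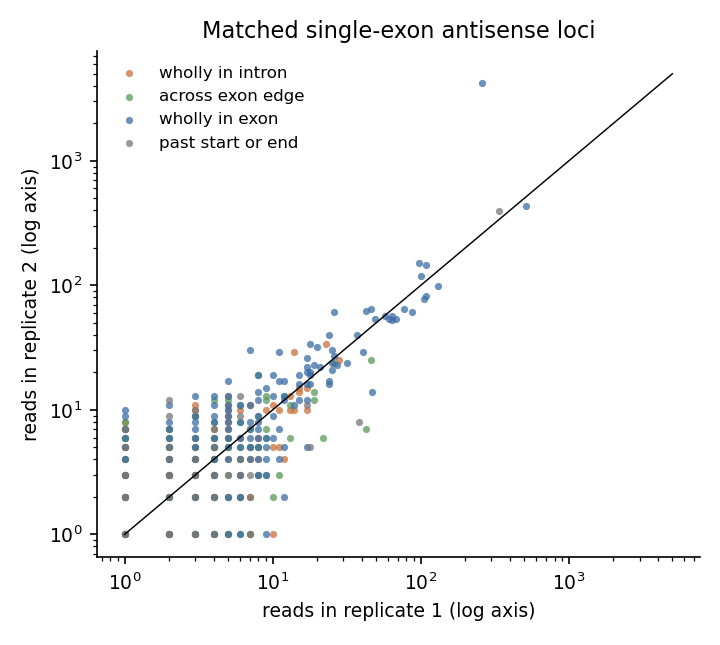
Reads of the 1627 matched single-exon antisense loci in replicate 1 (x axis, log) and replicate 2 (y axis, log), coloured by place, with the line of equal reads; points at the same counts overlie each other. The point far above the line is the locus of CT010467.1, at 260 and 4250 reads.

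Loci with at least 10 reads in 1 library and no partner had to be called, so their number supports nothing, and many of them had reads on the same strand under another model. Of 94 such loci, 89 had reads of any class on that strand in the other library, and 66 had at least 10. At Gm2a, which encodes the activator of ganglioside breakdown, replicate 1 listed 63 reads under a model of 1 base and replicate 2 listed 118 under a model of 842 bases. At Dhrs3, a retinaldehyde reductase, 105 reads in replicate 1 and 135 in replicate 2 stood under models that overlapped by less than the limit. The 148 reads opposite Ccnd2, cyclin D2, in replicate 2 met 126 reads of any class in replicate 1. Gnb1, a G protein beta subunit, showed the same with 73 and 77 reads under models of 302 and 1306 bases.

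Other loci without a partner had lower counts on that strand in the other library. Spry2, a feedback inhibitor of growth factor receptors, had 78 reads in replicate 2 and 29 of any class in replicate 1. Opposite Scarb1, the HDL receptor that supplies cholesterol to the cortex, replicate 1 had 21 reads and replicate 2 had 0, with 1 of any class. Against a floor of 3 counts that is at least 7.17-fold lower in replicate 2. A locus past the start of Cpeb4, a regulator of cytoplasmic polyadenylation, had 20 reads in replicate 1 and 0 in replicate 2, with 0 of any class, which is at least 6.82-fold lower.

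Against the sense strand, antisense reads did not follow the level of the opposite gene closely. Each long read counts once whatever its length, so these are read counts with no length scaling. Of 599 opposite genes with at least 10 single-exon antisense reads over both libraries, 231 (38.6%) in replicate 1 and 287 (47.9%) in replicate 2 had more antisense than sense reads, and 208 did in both. The genes were chosen on their antisense reads, so these shares describe the chosen genes and not opposite genes at large. The median share of antisense among both strands was 40% and 50%. Across these genes, which share the library and its depth, Spearman's rho between sense and antisense reads was 0.20 and 0.11.

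Taken instead by the level of the gene, the antisense share was small and was lower where the gene had more reads. Genes of 10 to 99 sense reads had 4.08% and 4.94% antisense reads, those of 100 to below 1000 had 0.825% and 0.763%, and those of 1000 or more had 0.433% (0.386 to 0.484) and 0.27% (0.232 to 0.315). The last group was 33 and 28 genes with 300 and 160 antisense reads, of which Kcnk3 alone gave 131 and 110. Its shares and intervals thus rest largely on 1 gene. The genes were grouped by their sense reads, so these shares are a description with no test.

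**Figure D5:**
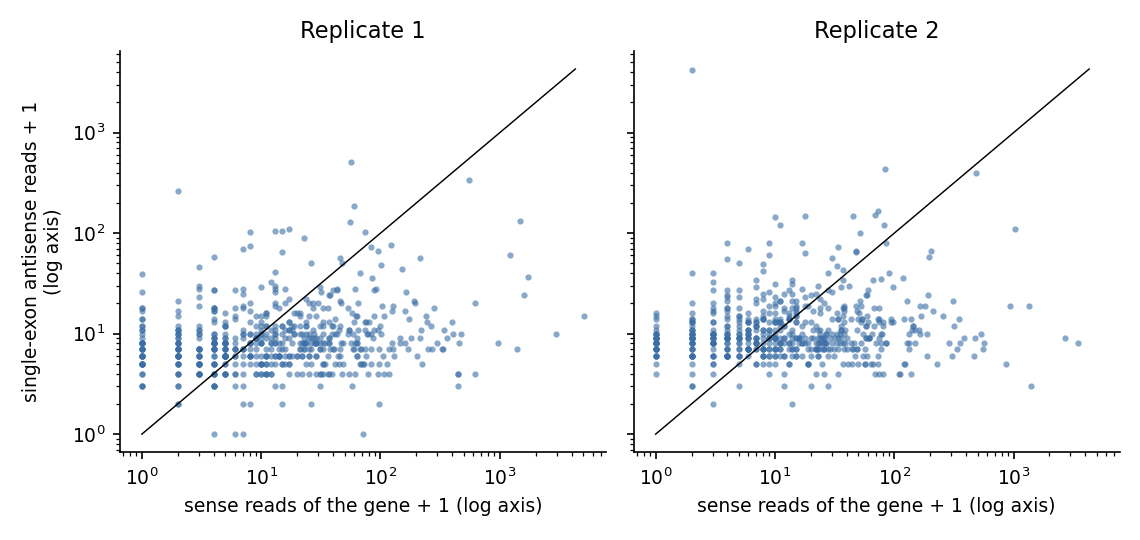
Sense reads plus 1 (x axis, log) and single-exon antisense reads plus 1 (y axis, log) of the 599 opposite genes with at least 10 antisense reads over both libraries, 1 panel per replicate, with the line of equal reads. Genes lie on both sides of the line: 231 and 287 are above it, with more antisense than sense reads.

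Lists of genes of known roles showed where in the gland's repertoire the models fell. Opposite 8 of 12 genes of the adrenal cortex lay 28 loci with 126 reads in replicate 1 and 41 in replicate 2, which is 0.339% and 0.136% of the reads on both strands. The 4 loci of this list with at least 10 reads included those of Fdx1 and Scarb1 described above. Opposite 4 of 10 chromaffin genes lay 7 loci with 7 and 11 reads. Among them were Ddc, which makes dopamine, with 2 and 4 reads, and Chgb, a granule protein, with 2 and 1. None of the chromaffin loci had enough reads for a test.

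Among genes of other tissues, fat genes had the most antisense reads. Opposite 5 of 7 fat genes lay 10 loci with 46 and 74 reads, of which the 3′ UTR locus of Plin1, the lipid droplet coat protein, had 43 and 62 (log2 ratio 0.49, adjusted p = 0.399 by Fisher's exact test). Its sense reads were 151 and 201. Genes of liver and of red blood cells had no such model, although the latter had 2181 and 1862 sense reads. Pancreas acinar genes, at 2 sense reads in replicate 1 and 3119 in replicate 2, had 0 and 3 antisense reads.

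Imprinted genes, which are expressed from 1 parental copy and in part through antisense RNA, had 10 loci with 14 and 22 reads opposite 5 of 9 genes. Dlk1, a growth regulator, had 5 and 3 reads, and an intronic locus of Meg3, its noncoding neighbour, had 0 and 7, with 7 and 8 reads of any class. Immediate early genes had 5 loci with 6 and 9 reads, of which Btg2 had 4 and 3. On the mitochondrial genome, where both strands are transcribed as long precursors, 14 loci had 17 and 27 reads, led by mt-Nd6 with 2 and 9. That locus was not called on these reads (log2 ratio 1.91, adjusted p = 0.315 by Fisher's exact test). Reads of any class on its strand were 105 and 273, called higher in replicate 2 (log2 ratio 1.34, adjusted p = 1.8e-15 by Fisher's exact test). In replicate 2 the model ended at base 14145, the first base of mt-Cytb on the same strand, which had 84 and 247 sense reads. The count of any class may hold those reads, so this call is not one of the antisense locus alone.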

How the data were processed

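Long-read RNA sequencing was done on 2 libraries of 1 group. Whole read counts per transcript model, with no normalization, were deposited by the authors, per the file headers. Models carry TALON classes and positions on mm10 with GENCODE M21, per the file headers; the aligner was not given in the sources used here. Spike-ins were removed by sequence name, leaving 452437 and 463102 reads; 1 read was worth 2.21 and 2.16 CPM, so the floor of 3 counts that a listed 0 allows lay at 6.63 and 6.48 CPM.

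The opposite gene was the M21 gene on the other strand with the longest overlap. Sense reads were summed over all classes of that gene. Letters were read through M21 transcripts. Shares carry Wilson 95% intervals. Intervals, floors and tests cover counting error only, and as no molecular identifiers are given, amplified reads may not be independent molecules. Fisher's exact test was tested on simulated data and run over 8605 features (annotated genes, antisense loci and other unannotated genes). Python 3.11.15 with scipy 1.17.1 was used; edgeR 4.0.16 and DESeq2 1.42.0 gave alternative scaling of counts.

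Members, gene lists and tests were chosen with earlier results of these data known. Named loci were the 10 matched loci with the most reads, 2 per place, up to 5 called each way, 5 per library without a partner, and up to 2 per gene list; not all are described, and 1 locus among those with the most reads is not reported here. Loci outside this rule are in the printed sequences, taken by reads, and among the called matched loci.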

Additional observations from a re-analysis of the deposited data

How the results depend on the processing

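No paired analysis was possible because the 2 libraries form 1 group. The mean share of endogenous reads, 4.1%, was 2.79% and 1.9% from models of at least 2 and 5 reads, and 3.31% to 4.9% leaving out either library. The matched share of models, 20.6%, was 15% at 80% overlap, 28% at 20%, 34.1% at any overlap, and 29.5% and 42.2% for models of at least 2 and 5 reads (17.5% to 23.7% by library).

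By place, the exonic share of models, 22.5%, was 21.8% for protein-coding opposite genes, 46.4% by reads (38.4% without the ribosomal RNA locus, a setting chosen after seeing the data), 33% and 53.3% at 2 and 5 reads and 20.9% with the libraries' own annotation files. The intronic share, 50.7%, was 31.1% by reads (35.8% without that locus), 38.2% and 22.4% at 2 and 5 reads and 44.4% with the own files. The share across an edge, 22.7%, was 16.9% by reads (19.3% without that locus) and 19.1% at 5 reads. Leaving out either library gave 22.3% to 22.7%, 48.9% to 52.4% and 21.3% to 24.1%.

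With the loci that had no partner, 101 loci were called. The count was 34 at a minimum of 20 reads, 56 with matching at 20% overlap, 22 at any overlap (chosen after seeing the data) and 17 with reads of any class; TMM or DESeq2 scaling left it at 101. With reads of any class, the log2 ratios reversed at Dhrs3 (-7.86 to 0.40), Gnb1 (-7.34 to 0.04), Gm2a (-7.13 to 0.87) and Dpysl2 (-6.33 to 0.60), where the other library's reads stood under another model; all 7 called matched loci were called there too.

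The A-rich share, 79.4%, was 64.2% as a run of at least 6 A (79.1% to 79.8% by library). The signal word share, 11.1%, was 7.46% for AATAAA alone and 19% in the last 100 bases (11.1% to 11.2%), where the background was 3.07% and 10.1%. The median antisense share, 45%, was 56.2% against full-length sense reads (40% to 50%). The causes were not tested. Most models had 1 read, at which depth a missing partner was not distinguishable from one not sampled.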
